A study of Mus musculus with 10 samples.

Results

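Tmem176a and Tmem176b are 2 neighbouring mouse genes that encode related membrane proteins with 4 spans. They were taken by symbol from a table of gene expression in Th17 cells, helper T cells that make the cytokine IL-17, and both symbols had a row among the 17493 genes of the table. Both passed the filter on low values, which left 12535 genes for testing. The cells were CD4+ T cells from the spleen of C57BL/6 mice. Naive cells were activated with anti-CD3 and anti-CD28 in the presence of IL6 (20 ng/mL) and TGFb (2.5 ng/mL) and kept for 48 to 72 h. The TMP269 group (2 libraries) was exposed to TMP269, a selective inhibitor of class IIa histone deacetylases (HDAC4, HDAC7 and their 2 relatives), before harvest, and the control group (2 libraries) was given DMSO. The dose and the time of exposure are not stated in the labels. Nor do they say whether replicates were separate animals or cultures, so part of the spread among the 4 libraries could be technical. The p-values of the main test rest on that spread and on the variance of other genes of like level. The study's libraries for binding of HDAC4 and HDAC7 to chromatin are not analysed here.

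The proteins of the pair belong to the wider MS4A family, whose best known member is the B cell protein CD20. They sit in membranes of the Golgi and endosomes, where they are known to work as cation channels. In the immune system both genes are known from dendritic cells and macrophages and from lymphocytes that make IL-17. They have been counted among the genes of the Th17 programme, beside Il17a, Il17f and Il23r. Class IIa histone deacetylases bind transcription factors such as those of the MEF2 family and hold their target genes down. The comparison asks how these genes respond when the class IIa enzymes are inhibited in Th17 cells.

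The genes lie next to each other on mouse chromosome 6 and point away from each other, so they share the stretch from which both are read. RefSeq lists 2 start windows for Tmem176a on the plus strand and 3 for Tmem176b on the minus strand (build GRCm38.p6). The facing starts that lie closest together are 109 bases apart. The 108 bases between them, chr6:48841375-48841482 on the plus strand, are shown because they are upstream of both genes at once. They are in lower case throughout, since no searched motif fell in them and no part is marked.
Tmem176b-Tmem176a shared upstream stretch: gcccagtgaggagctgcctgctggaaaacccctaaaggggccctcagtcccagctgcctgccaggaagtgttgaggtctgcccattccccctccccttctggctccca
The stretch had a GC content of 63.9%, against a median of 54.6% in the 108 bases upstream of all 32851 RefSeq starts. It held 0 CpG dinucleotides, against a median of 3, and 19.5% of all such stretches held as few. On both strands it held no match to AGGTCA, a core recognised by nuclear receptors (present in 6.34% of stretches of that length). It also held no match to the MEF2 consensus (1.11%), to the AP-1 motif TGANTCA (3.01%), to the STAT motif TTCNNNGAA (2.79%), to the RUNX motif TGTGGT (6.06%), to the GC box GGGCGG (25.5%) or to the TATA box TATAAA (5.87%). The 250 bases upstream of each of the 2 facing starts also held none of these letters. This says only that the letters are not in these windows. The span that RefSeq gives for the whole Tmem176b gene takes in Tmem176a on the opposite strand, although none of the 3 listed Tmem176b starts lies beyond Tmem176a. The strand setting of the counting is not given, so reads of the overlap could have been assigned to either gene or to neither.

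Recovered reads came to 20007042 to 25321455 per library. DMSO replicate 2 was the shallowest and had the highest share of reads from the ribosomal RNA gene Rn45s (2.20%, against 0.716% to 1.12% in the other libraries). Markers of helper T cells were abundant in every library, with Cd4 at 8263 to 9479 and Cd3e at 4097 to 4821 normalised reads, which are reads divided by the authors' size factor of each library. Il17a and Il17f, which mark the Th17 class, were expressed in all libraries.

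Both genes of the pair were read at a middling level and were somewhat higher with TMP269, by 1.20-fold for Tmem176a and 1.18-fold for Tmem176b, but neither change passed the test. Tmem176a stood at 681 and 696 normalised reads in DMSO replicates 1 and 2 and at 832 and 820 in TMP269 replicates 1 and 2. The DMSO libraries lay close together, as did the TMP269 libraries, and the groups did not overlap. Tmem176b stood at 899 and 789 normalised reads in the DMSO libraries and at 984 and 1006 in the TMP269 libraries. Here the groups did not overlap either, but DMSO replicate 1 lay nearer to the TMP269 libraries than to DMSO replicate 2. Among all tested genes, 32.6% had both TMP269 libraries above both DMSO libraries, so separation of the groups is common in this table.

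**Figure D1:**
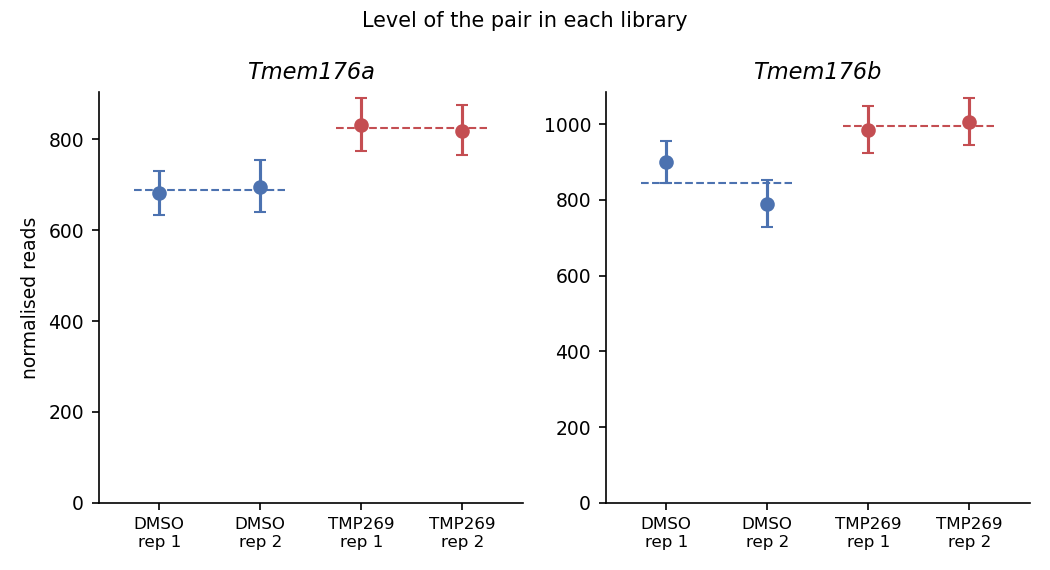
Normalised reads of Tmem176a and Tmem176b in each of the 4 libraries, with the axis starting at 0. Points are libraries, bars are exact 95% Poisson intervals for counting error only, and dashed lines are group means. In each gene both TMP269 libraries lie above both DMSO libraries, with a wider gap in Tmem176a.

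The mean of Tmem176a was 688.5 ± 10.5 in DMSO and 826 ± 8.76 with TMP269 (SD, n = 2). On the log2 scale it was higher by 0.26 ± 0.09 (SE), and the limma adjusted p was 0.06 (unadjusted 0.0178), where 27.5% of all tested genes passed an adjusted p under 0.05. The mean of Tmem176b was 844 ± 77.8 in DMSO and 995 ± 15.4 with TMP269 (SD, n = 2). Its log2 fold change was 0.24 ± 0.10 (SE), with a limma adjusted p of 0.0969 (unadjusted 0.0354). The 95% intervals of the fold ran from 1.04 to 1.38 for Tmem176a and from 1.01 to 1.38 for Tmem176b, without allowance for the number of genes tested. An adjusted p that misses the threshold does not show that the genes did not respond. In abundance the pair ranked 5850 (Tmem176a) and 5261 (Tmem176b) among tested genes, by normalised reads that are not corrected for gene length. By log2 fold change 75.1% of tested genes lay below Tmem176a and 73.6% below Tmem176b.

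The reads behind these values numbered 577 to 863 per library for Tmem176a and 654 to 1059 for Tmem176b. Counting alone then gives an error of 3.40% to 4.16% for Tmem176a and of 3.07% to 3.91% for Tmem176b. The DMSO libraries differed in Tmem176b by more than that, with a coefficient of variation of 9.22% against 1.55% in the TMP269 libraries, whereas in Tmem176a it was 1.52% and 1.06%. As CPM, which scales every library to the same total, Tmem176b was at 39.5 and 32.7 in DMSO and at 45.7 and 45.5 with TMP269. Tmem176a was at 29.9 and 28.8 CPM in DMSO and at 38.6 and 37.1 with TMP269. On this scale too the groups were separate, and DMSO replicate 2 was the lowest library for both genes.

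The balance between the pair differed less between the groups than between the DMSO libraries. There were 1.32 and 1.13 reads of Tmem176b for each read of Tmem176a in DMSO replicates 1 and 2, and 1.18 and 1.23 in TMP269 replicates 1 and 2. Size factors cancel in this ratio, which says nothing of the molar balance since gene length is not taken into account. Its log2 mean was 0.29 ± 0.16 in DMSO and 0.27 ± 0.04 with TMP269 (SD, n = 2), a difference of -0.02 (two-sided exact permutation p = 1.0 over the 6 assignments of the labels, a design in which no difference can pass at 0.05). Both TMP269 ratios lay between the DMSO ratios, and with 1 library left out the difference was -0.13 to 0.09.

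Whether either gene passed varied with the processing, of which the scaling and the library left out are given here. With equal library totals in place of the authors' size factors, the log2 fold change of Tmem176a was 0.37 (limma adjusted p = 0.0238) and that of Tmem176b 0.34 (limma adjusted p = 0.0541), where 25.4% of tested genes passed. That scaling moved the median of all tested genes from -0.0037 to 0.10, so relative to the median Tmem176a was at 0.27 in both cases. With edgeR and TMM factors on the recovered reads, Tmem176a passed narrowly (adjusted p = 0.0461, log2 fold change 0.28) and Tmem176b did not (0.0874), where 27.2% of tested genes passed. For Tmem176b the DMSO libraries decided the value. Without DMSO replicate 1 its log2 fold change was 0.33 (limma adjusted p = 0.0485, with 29.3% of tested genes passing), and without DMSO replicate 2 it was 0.15 (limma adjusted p = 0.421). For Tmem176a the log2 fold change stayed between 0.25 and 0.28 with any 1 library left out, and its limma adjusted p was then 0.141 to 0.252.

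**Figure D2:**
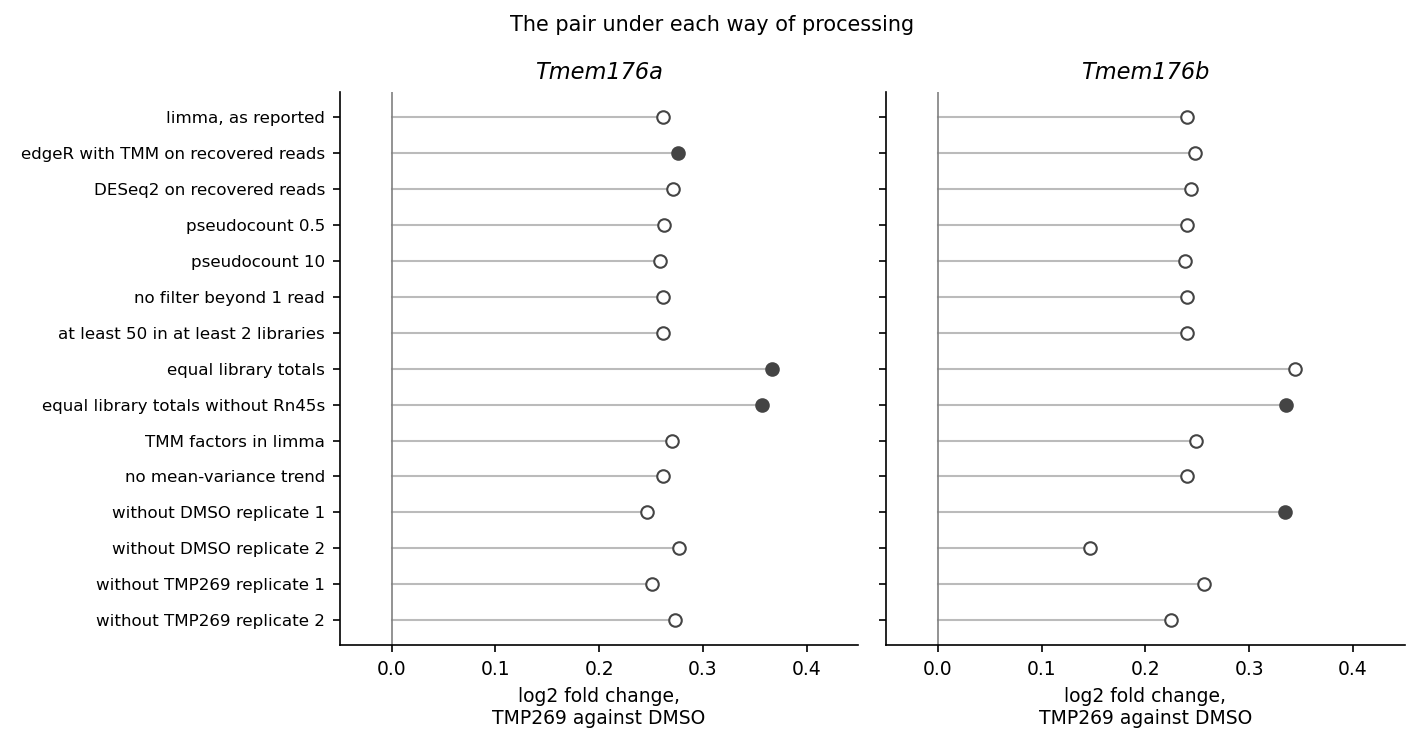
Log2 fold change of Tmem176a (left) and Tmem176b (right), TMP269 against DMSO, under each way of processing listed on the left. Filled points have an adjusted p under 0.05. Every value is above 0, that of Tmem176b without DMSO replicate 2 is the lowest at 0.15, and the highest are those with equal library totals.

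Among genes of the Th17 programme, both interleukin 17 genes fell, as did the receptor genes Ccr6 and Il1r1, while the chemokine gene Ccl20 rose. Of the 9 listed genes reported here, all of them tested, 1 rose (12.8% of all tested genes did) and 4 fell (14.7% of all tested genes did), with a median log2 fold change of -0.52 against -0.0037 over all tested genes. Ccl20 encodes the ligand of the receptor made from Ccr6 (169 and 106 normalised reads in DMSO, 324.5 and 202 with TMP269, 1.91-fold, limma adjusted p = 0.0321). Il17a, the cytokine gene that gives the class its name, stood at 1888 and 1949 normalised reads in DMSO and at 750 and 786 with TMP269, and fell to 0.401-fold (limma adjusted p = 0.000127). Il17f, which encodes a related cytokine, fell to 0.479-fold, the chemokine receptor gene Ccr6 to 0.444-fold and Il1r1, the receptor of interleukin 1, to 0.581-fold (limma adjusted p = 0.00113, 0.000221 and 0.0255). In each of the 4 genes that fell both TMP269 libraries lay below both DMSO libraries, the opposite order to that of the pair.

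The remaining genes of the list did not pass. Rora, a nuclear receptor gene, had a log2 fold change of 0.15, with overlapping groups. Il23r, the receptor gene for IL-23, was at -0.52, the cytokine gene Il22 at -0.44 and the leukotriene receptor gene Ltb4r1 at -0.28. Without DMSO replicate 2 the calls of Il1r1 (limma adjusted p = 0.128) and Ccl20 (0.13) were lost, and that of Ccl20 also without TMP269 replicate 1 (0.0885). Without DMSO replicate 1, Il23r (log2 fold change -0.73) and Il22 (-0.92) passed as lower, and Il23r also without TMP269 replicate 2 (-0.66). In total 3 to 7 of the 9 passed with 1 library left out, and the number was 3 without DMSO replicate 2.

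**Figure D3:**
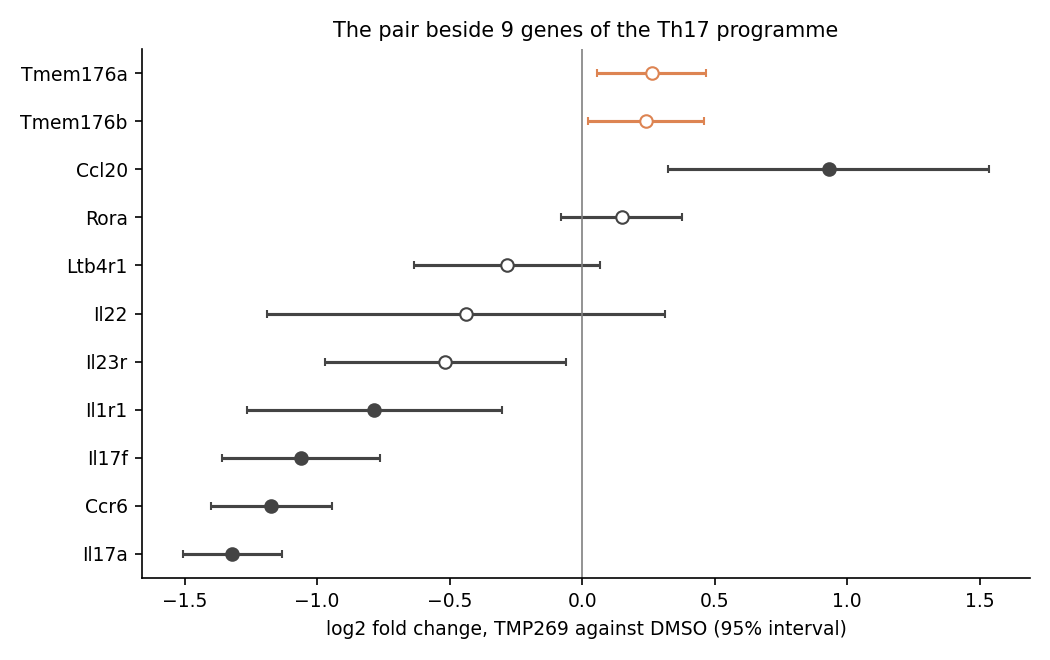
Log2 fold change, TMP269 against DMSO, of the pair (orange) and of 9 genes of the Th17 programme (grey), with 95% intervals from limma that are not adjusted for the number of genes. Filled points have an adjusted p under 0.05. Of the filled points Ccl20 lies on the higher side and 4 genes from Il1r1 to Il17a lie on the lower side, and the pair lies just above 0 at 0.26 and 0.24.

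Set against Il17a within each library, the pair was read more with TMP269. Reads of Tmem176a per read of Il17a were 0.361 and 0.357 in DMSO and 1.11 and 1.04 with TMP269. For Tmem176b they were 0.476 and 0.405 in DMSO and 1.31 and 1.28 with TMP269. The groups were separate in both ratios. On the log2 scale the ratio was higher by 1.58 for Tmem176a and 1.56 for Tmem176b, most of which is the fall of Il17a itself (-1.32) and not the change of the pair (0.26 and 0.24). In a two-sided exact permutation test each difference was matched in 2 of the 6 assignments of the labels, the fewest that 2 against 2 libraries allow, so neither could pass at 0.05.

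Factors and receptors that set up the Th17 programme rose more often than they fell. Of 16 such genes tested, 7 rose and 1 fell (12.8% and 14.7% of all tested genes), with a median log2 fold change of 0.18. The largest of these rises was that of Tgfbr2, a subunit of the TGF-beta receptor (1.63-fold). Maf, a transcription factor of Th17 cells, rose 1.48-fold, Il21r, the receptor of IL-21, 1.37-fold and its ligand gene Il21 1.36-fold. With TMP269 replicate 1 left out Il21 no longer passed (limma adjusted p = 0.0608). Ahr, the aryl hydrocarbon receptor gene, fell to 0.771-fold (limma adjusted p = 0.0393, but 0.088 with equal library totals, 0.166 without DMSO replicate 2 and 0.246 without TMP269 replicate 1). Batf, Irf4 and Stat3, which open the Th17 programme, were not called (log2 fold change 0.20, -0.09 and -0.18), although Batf passed as higher with equal library totals (limma adjusted p = 0.0203). With 1 library left out, 5 to 7 of the 16 passed, and the number was 5 without DMSO replicate 2 and 5 without TMP269 replicate 2.

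The genes whose values over the 4 libraries ran most like those of each member were in neither of these Th17 lists. The lists hold 9 and 16 tested genes, too few among those compared for this absence to carry weight. Likeness was the distance between log2 profiles after each gene's mean was taken away, over 4 libraries and 10148 named genes with a mean of at least 50 normalised reads. The nearest to Tmem176a were Wipf2 (distance 0.0181), Ccdc66 (0.0206), Cdk12 (0.0258), Ifnar1 (0.0264) and Zfp868 (0.0269), where the median distance was 0.393. The nearest to Tmem176b were Rsf1 (distance 0.0277), Aplp2 (0.0357), Sbf2 (0.0359), Recql5 (0.036) and Zfp59 (0.0374), where the median distance was 0.405. The partners lay 0.161 apart, which placed Tmem176b at rank 1093 for Tmem176a and Tmem176a at rank 726 for Tmem176b. What set the partners apart was the DMSO pair, where Tmem176b differed between replicates and Tmem176a did not by as much.

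The chromosomal neighbours on the Tmem176b side are the GIMAP genes, which encode small GTPases of lymphocytes known for roles in T cell survival. Of the 8 protein-coding genes on each side in RefSeq, 12 had a row in the table and all 12 were tested. Of these, 6 rose and 0 fell, where 12.8% of all tested genes rose and 14.7% fell, with a median log2 fold change of 0.30. Gimap3, the nearest on that side, stood at 4108 and 3676 normalised reads in DMSO and at 5482 and 5177 with TMP269, a 1.37-fold rise (limma adjusted p = 0.00586). Gimap9 rose 1.43-fold, Gimap8 1.41-fold, Gimap4 1.25-fold and Gimap6 1.22-fold, whereas Gimap5, Gimap1 and Gimap7 were not called (log2 fold change 0.12, 0.05 and -0.37). On the other side the nearest gene with a row was Aoc1, a diamine oxidase gene with few reads (16.2 and 10.9 in DMSO, 17.6 and 27.5 with TMP269, normalised), which was not called (limma adjusted p = 0.233). Gpnmb, a glycoprotein gene known from macrophages, stood at 42.3 and 45.8 in DMSO and at 135 and 177 with TMP269 and rose 3.46-fold (limma adjusted p = 9.92e-04). The call of Gimap4 was lost without either TMP269 library (limma adjusted p = 0.0609 without replicate 1 and 0.109 without replicate 2), and that of Gimap6 without DMSO replicate 2 (0.064), TMP269 replicate 1 (0.08) or TMP269 replicate 2 (0.126). The log2 fold change of Gimap7 was -0.52 without TMP269 replicate 2. That of Igf2bp3 was -0.23 with all libraries and -0.78 without TMP269 replicate 1. Its values differed within both groups (397 and 203 in DMSO, 351 and 165 with TMP269).

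**Figure D4:**
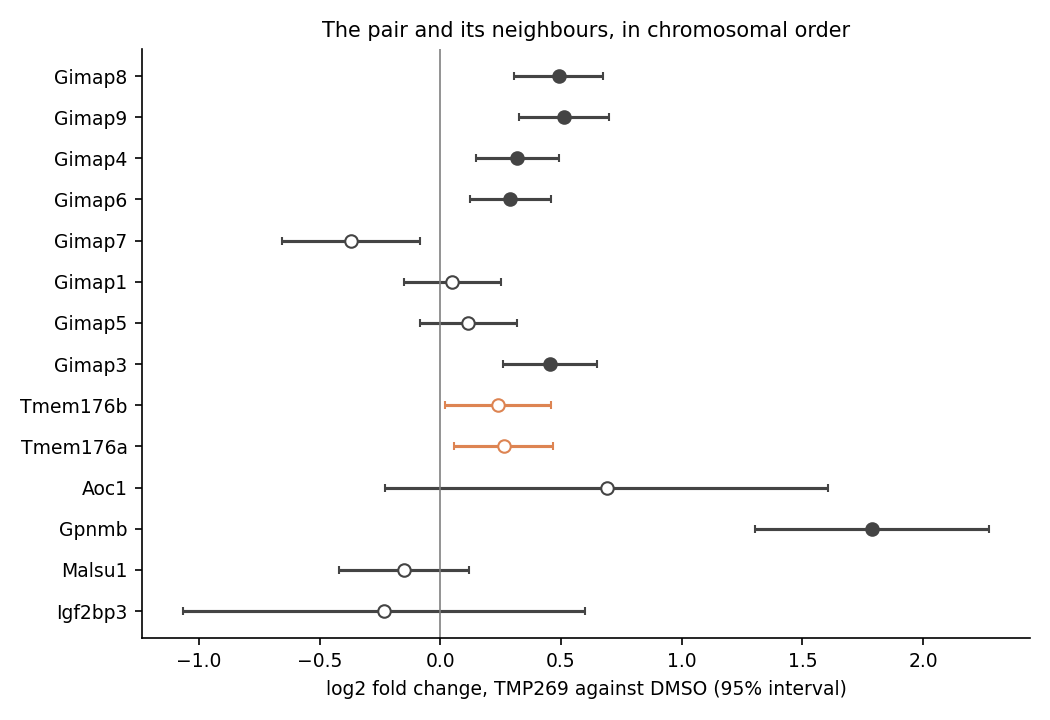
Log2 fold change, TMP269 against DMSO, of the pair (orange) and of the 12 tested neighbours (grey) in chromosomal order, with 95% intervals from limma that are not adjusted for the number of genes. Filled points have an adjusted p under 0.05. Filled points on the higher side are 5 GIMAP genes and Gpnmb, and the pair sits beside Gimap3 with open points.

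In the MS4A family, to which the pair is related, some members had larger log2 fold changes than the pair, a difference that was not tested. Of 12 genes in the table, 6 passed the filter on low values, and of these 2 rose and 1 fell (12.8% and 14.7% of all tested genes). Ms4a4b, a member known from T cells, stood at 269 and 362 normalised reads in DMSO and at 732 and 1098 with TMP269 and rose 2.87-fold (limma adjusted p = 0.00141). Ms4a6b, also known from T cells, stood at 905 and 1190 in DMSO and at 1552 and 2124 with TMP269 and rose 1.75-fold (limma adjusted p = 0.00814). Ms4a1, which encodes CD20, stood at 492 and 683 in DMSO and at 296 and 301 with TMP269 and fell to 0.515-fold (limma adjusted p = 0.00339). Ms4a6c had a log2 fold change of 0.46 and missed the threshold (limma adjusted p = 0.0967). With TMP269 replicate 1 left out its log2 fold change was 0.69. Members of 1 family can share reads, and how such reads were counted is not given in the sources used here.

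Tmem176b is also known as a brake on the NLRP3 inflammasome of myeloid cells, and genes of that machinery were listed for this reason. The table held 13 such genes, and of the 10 that were tested 3 rose and 0 fell, where 12.8% of all tested genes rose and 14.7% fell. Gsdmd, the pore-forming gasdermin, rose 1.71-fold from 616 and 552 normalised reads in DMSO to 1075 and 931 with TMP269 (limma adjusted p = 0.00184). Il1a, a cytokine gene, rose 2.92-fold from 18.9 and 13.3 normalised reads to 56.9 and 40.8 (limma adjusted p = 0.0105, but 0.0701 without TMP269 replicate 1). Aim2, a DNA sensor, rose 1.31-fold (limma adjusted p = 0.0453, but 0.194 without DMSO replicate 1, 0.0702 without TMP269 replicate 1 and 0.124 without TMP269 replicate 2). Casp4 missed the threshold (limma adjusted p = 0.479), and its log2 fold change went from 0.25 to 0.67 with TMP269 replicate 1 left out. Nlrp3 itself was barely read, at 10.3 to 20.7 normalised reads per library, and Il1b and Il18 fell under the filter.

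Because dendritic cells and macrophages also express the pair, their markers were read beside it. Lyz2, the lysozyme gene of myeloid cells, was at 1.80 and 2.41 normalised reads in DMSO and at 5.17 and 14.2 with TMP269. S100a8 of neutrophils was at 0 to 1.80 and Clec9a of dendritic cells at 0 to 1.03. The most read markers of the list were Mpeg1 (363 and 377.5 in DMSO, 244 and 180.5 with TMP269), Cybb (367 and 359 in DMSO, 189 and 192 with TMP269), Flt3 (214 and 303 in DMSO, 69.3 and 57.9 with TMP269) and Cd68 (97.2 and 83.2 in DMSO, 262.5 and 299 with TMP269). The 20 markers in the table summed to 1261 and 1322 normalised reads in DMSO and to 1016 and 1025 with TMP269. The fall of that sum lies in Mpeg1, Cybb and Flt3 and does not describe the list as a whole. Of the 14 tested markers, 8 had a positive log2 fold change. Their median was 0.10, against -0.0037 over all tested genes. Of the 14 tested, 1 rose and 3 fell (12.8% and 14.7% of all tested genes did). Cd68, a lysosomal gene, rose 3.09-fold (limma adjusted p = 4.85e-04). Those that fell were the cytokine receptor gene Flt3 (0.252-fold), the oxidase gene Cybb (0.526-fold) and Mpeg1 (0.568-fold), of which B cells also express some. Of the tested markers not called, Itgax, Xcr1 and Fcgr3, all with few reads, were higher in both TMP269 libraries than in both DMSO libraries. Their log2 fold changes were 0.83, 0.98 and 1.10. In the rest of those not called the groups overlapped. Markers of B cells were present and lower with TMP269. Of 17 tested, 11 fell and 0 rose, where 14.7% of all tested genes fell and 12.8% rose (9 to 12 fell with 1 library left out), and their sum went from 19670 and 18330 normalised reads to 12000 and 11950. Their part in the values of the pair was not tested. In a bulk sample a change in the number of cells of a type and a change in RNA per cell cannot be told apart. Of the 11 tested markers of T cells and innate-like lymphocytes, 1 rose and 0 fell (12.8% and 14.7% of all tested genes did). The gene that rose was Cd5 (1.49-fold). Cd4 and Cd3e were not called (log2 fold change 0.15 and 0.05).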

How the data were processed

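The submitters' processing notes name build mm9 and, with no role for any of them, DESeq2, HTSeq, TopHat2 2.1.0, Bowtie2 and CASAVA 1.4. The authors deposited 1 normalised signal value per gene and library. Each library was a whole multiple of 1 step, and dividing by it returned whole reads for 100% of values (tolerance 1e-06). The main test was limma 3.58.1 under R 4.3.3, with a trend of variance on mean and no covariate. It was run on log2(value + 1) of genes that reached 10 in 2 or more libraries. Each gene's variance was moderated toward that trend, with 6.84 prior degrees of freedom. P-values were two-sided and adjusted by Benjamini-Hochberg over 12535 genes, with calls at under 0.05. It called 3448 genes, and edgeR 4.0.16 on the recovered reads called 3406. Fold changes keep this scale, which understates those of low genes. The tests were checked on simulated data with 200 changed genes, 1 dispersion for all genes and no deviation shared by same-numbered libraries. There 8.27% of limma calls were false. In that simulation limma recovered 32.3% of 1.3-fold changes, 63.9% of 1.5-fold and 87.3% of 2-fold changes. In the data 27.5% of tested genes were called, so these rates need not hold for them. Changes as small as those of the pair were not simulated. Alternatives were edgeR, DESeq2 1.42.0, other pseudocounts, filters, scalings and thresholds, a replicate block and each library left out. Where that leaves 1 library in a group, a gene's own spread comes from the other group alone. That spread is still moderated toward the trend, so a pass or a loss there rests largely on other genes. The members and lists were chosen with earlier results of these data known. Named genes were the pair, the 5 nearest profiles to each, Rora, Il17a, Il17f and Il23r, the nearest neighbour on each side, and up to 4 called genes per list and direction. A gene that the rule also names is not reported here. Further list genes were chosen after their values were seen. Promoter sequences, gene order and synonyms are from RefSeq (GRCm38.p6), and both members matched by symbol.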

Additional observations from a re-analysis of the deposited data

How the results depend on the processing

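Both genes kept a positive log2 fold change in 16 of 16 alternatives each. Tmem176a passed in 4 of them, at 0.28 with edgeR, 0.37 and 0.36 with equal library totals (with and then without Rn45s) and 0.26 with a replicate block. Tmem176b passed in 3, at 0.34 with equal totals without Rn45s, 0.24 with a replicate block and 0.33 without DMSO replicate 1. With 1 library left out the log2 fold change was 0.25 to 0.28 for Tmem176a and 0.15 to 0.33 for Tmem176b, the difference in their log2 ratio -0.13 to 0.09, and the number of genes called 2078 to 3675 (3448 with all 4). The labels number replicates in both groups without saying that a number marks a shared animal or day. Same-numbered libraries deviated together across genes (r = 0.371), and the replicate block gave 6360 calls and an adjusted p of 0.00486 for Tmem176a and 0.00842 for Tmem176b. Tested genes numbered 12535 in all. Of these, 9 were in the Th17 programme list, 16 were Th17 regulators, 6 MS4A genes and 10 inflammasome genes. Neighbours numbered 12, myeloid markers 14 and B cell markers 17. Without a mean-variance trend 1063 genes passed, and 3 of the Th17 programme list, 2 Th17 regulators, 1 MS4A gene, 2 neighbours and 6 B cell markers. At an adjusted p under 0.01, 1487 genes passed, with 3 genes of the Th17 programme list, 5 Th17 regulators and 1 inflammasome gene. With the replicate block 8 of the 9 genes of the Th17 programme list and 5 of the 10 inflammasome genes passed, where 6360 of all 12535 tested genes did. With 1 library left out 3 to 7 of the Th17 programme list passed, and Th17 regulators 5 to 7. Leaving out libraries gave 2 or 3 inflammasome genes, 5 or 6 neighbours, 3 or 4 MS4A genes and 4 or 5 myeloid markers. The cause of these changes was not tested. With 2 libraries per group and 577 to 1059 reads per library for the pair, little can be told at this size of change. In Tmem176b the DMSO libraries differed. In Tmem176a the libraries of each group lay close together, and the variance used by limma was drawn partly from other genes.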

Other observations

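The pair can be set beside other genes that are read away from each other from nearby starts. In the RefSeq start windows, 568 such pairs of tested genes had facing starts within 500 bases, the Tmem176 pair among them. The log2 fold changes of partners had the same sign in 329 of these pairs (57.9%). Both partners were called higher in 6 pairs and lower in 25, and they were called in opposite directions in 14. Of all tested genes taken singly, 12.8% were called higher and 14.7% lower. These are shares of genes and not of pairs, and the shares among pairs of unrelated genes were not computed. In 59 pairs (10.4%), the Tmem176 pair among them, both genes had TMP269 libraries above all DMSO libraries. Taken singly, 32.6% of all tested genes did, so the count of pairs does not by itself show that partners moved together. The partners' log2 fold changes differed by 0.0217 between Tmem176a and Tmem176b and by a median of 0.276 over all the pairs, and 2.99% of pairs differed by less. These are descriptions of 4 libraries, chosen after the values of the pair were seen, and carry no test.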
